A study of Mus musculus with 12 samples.

Results

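Astrocyte marker genes were examined in RNA of sorted oligodendrocyte lineage cells from mouse pups. The members were 31 gene symbols known as astrocyte markers, taken where the symbol stood in the gene column of the count table, and 29 of the 31 were found among its 14107 genes. Ppap2b and Id2os were not found under these symbols. The table holds Plpp3, the newer symbol of Ppap2b, with a log2 fold change of -0.09 (edgeR adjusted p = 0.504), and it is not counted among the members. All 29 measured members passed the expression filter, none stood at 0 in any library, and the lowest count of a member in a library was 275.

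The 5 Chd7iKO libraries came from pups that carried PDGFRaCre together with Chd7flox/flox, and the 7 Control libraries from littermates with Chd7flox/flox and no Cre. The Pdgfra promoter is active in oligodendrocyte precursors, and the protein of Chd7 moves nucleosomes with energy from ATP, so the comparison asks what its loss in that lineage does to the transcripts of the sorted cells. Both groups were given tamoxifen (20 mg/ml) on postnatal days 1 (40 µl) and 4 (30 µl), and O4+ cells of cortex and corpus callosum were taken with magnetic beads at postnatal day 7. There was no group with Cre and unfloxed Chd7, and the sources do not say how many pups made 1 library, so that p-values here reflect only the variation among these samples, some of which may be technical. Total estimated counts were 30384507 to 35512310 per library. The lineage markers were abundant, with Pdgfra at 4390 to 5124 CPM (counts after scaling all libraries to 1 common size) in Chd7iKO and 4998 to 5924 CPM in Control libraries. Chd7 itself stood at 206.6 to 281.3 CPM in Chd7iKO and 179.3 to 270.3 CPM in Control libraries (two-sided exact permutation test, p = 0.760, n = 5 and 7), but counts over the whole gene do not check the deletion of a part of it.

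Astrocytes take up potassium and glutamate released by neurons, turn glutamate into glutamine, share ions and metabolites through gap junctions and send end-feet to blood vessels. They are not the cells that the O4 antibody is used to select, and they share a radial glial origin and several transcripts with oligodendrocyte precursors. In RNA of a bulk sort, fewer cells of a type and less RNA per cell cannot be told apart.

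Of the 29 members, 2 were higher in Chd7iKO cells, Slco1c1 and Plcd4, 1 was lower, Gpc5, and 26 did not pass the test (edgeR quasi-likelihood test, Benjamini-Hochberg adjustment over all genes, threshold 0.05). Over all genes, 29.5% were called, 15.8% higher and 13.8% lower, so that the share of members called lies below the background. Members varied more between libraries, with a median SD of log2 CPM among Controls of 0.416, against 0.161 for all genes. They also varied together, so the lower share does not show that they changed less than other genes. The same 3 of 29 members had an unadjusted p under the threshold, as did 5744 of the 14107 genes. The median log2 fold change was 0.0016 over the members and 0.0014 over all genes, with 15 members positive and 14 negative. The authors' deposited table called the same 3 members and 26.4% of all genes. Gpc5 was also the 1 member whose Chd7iKO and Control libraries did not overlap, against 12.5% of all genes and 6.32% in that direction.

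**Figure D1:**
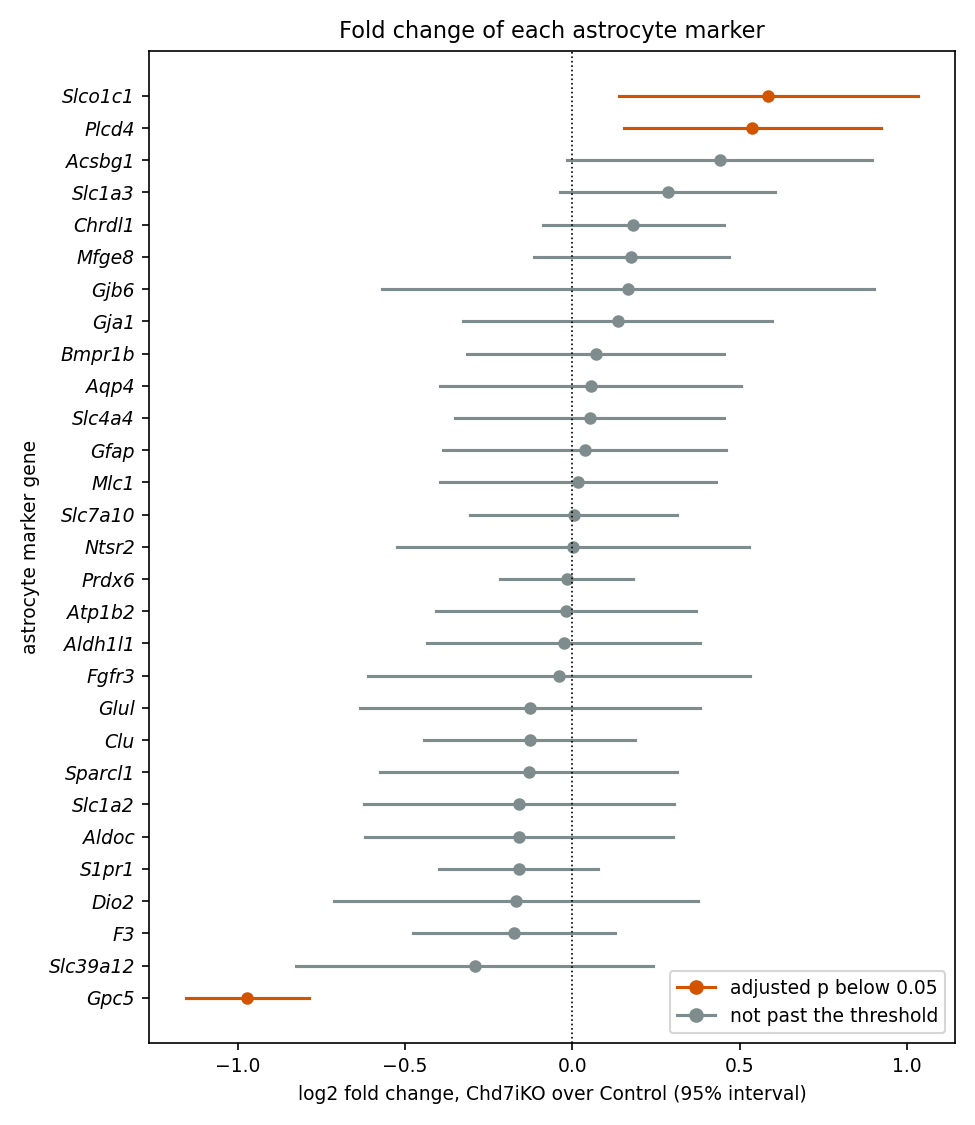
Log2 fold change of each of the 29 measured astrocyte markers, Chd7iKO over Control, with 95% intervals from the edgeR fit; orange marks an adjusted p below 0.05. Gpc5 lies at -0.97, Slco1c1 at 0.59 and Plcd4 at 0.54, and the other 26 intervals include 0.

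Upstream sequence is shown for the 3 called members and for Gfap, the filament gene that most often defines astrocytes, to set the promoter of the gene that fell beside those of the others. Each window is the 250 bases before the annotated start (RefSeq, GRCm38.p6), read along the gene, with CG pairs in capitals. Where a gene has 2 windows in the table (Plcd4), the first is printed.
Gpc5, chr14:115091965-115092214, plus strand: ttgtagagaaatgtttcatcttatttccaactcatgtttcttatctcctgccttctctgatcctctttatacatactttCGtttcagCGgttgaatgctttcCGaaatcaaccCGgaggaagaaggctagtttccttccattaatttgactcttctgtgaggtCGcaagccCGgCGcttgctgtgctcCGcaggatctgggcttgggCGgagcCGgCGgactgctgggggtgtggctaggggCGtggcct
Slco1c1, chr6:141524104-141524353, plus strand: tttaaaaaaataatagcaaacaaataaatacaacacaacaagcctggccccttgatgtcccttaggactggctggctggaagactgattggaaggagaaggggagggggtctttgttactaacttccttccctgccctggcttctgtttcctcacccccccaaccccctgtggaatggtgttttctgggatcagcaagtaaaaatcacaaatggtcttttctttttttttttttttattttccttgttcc
Plcd4, chr1:74542639-74542888, plus strand: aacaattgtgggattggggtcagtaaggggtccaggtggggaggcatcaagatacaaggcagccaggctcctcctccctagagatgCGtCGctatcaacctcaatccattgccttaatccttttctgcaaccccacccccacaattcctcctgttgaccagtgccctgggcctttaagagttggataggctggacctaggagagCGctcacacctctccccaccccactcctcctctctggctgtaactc
Gfap, chr11:102897201-102897450, minus strand: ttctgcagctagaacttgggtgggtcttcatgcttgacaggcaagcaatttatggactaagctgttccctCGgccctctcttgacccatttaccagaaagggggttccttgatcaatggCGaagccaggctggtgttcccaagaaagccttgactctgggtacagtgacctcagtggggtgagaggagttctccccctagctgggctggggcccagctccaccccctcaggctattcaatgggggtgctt
The Gpc5 window held 12 CG pairs, and 33.5% of all 32851 windows of this length held at least as many. The Slco1c1 window held 0, as did 7.87% of all windows, the Plcd4 window 3 and the Gfap window 2, against a median of 6 over all windows. Windows were found for 22 members, with a median of 4.5 over these, 12 over the 7 on the list of genes bound by Chd7 in precursors and 18 over all tested genes of that list with a window. CG pairs were marked after a search for other letters. ACAAT, the core of Sox sites, on either strand, was in 4 of the 22 member windows and 27.7% of all windows, and among the printed windows in Plcd4 alone. TTGGC, an NFI site arm, on either strand, was in 9 of the 22 and 41.5% of all windows, and in none of the printed ones. A match is a description of the letters only.

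Gpc5 encodes a glypican, a heparan sulfate proteoglycan anchored to the cell surface (chromosome 14, 115092215 to 116525179, GRCm38). It had 63.3, 47.1, 48.1, 52.5 and 48.7 CPM in Chd7iKO libraries 1 to 5, against 109, 104, 95.6, 115, 103, 86.0 and 99.8 CPM in Control libraries 1 to 7. Every Chd7iKO library lay below every Control library. The mean was 51.9 ± 6.68 CPM in Chd7iKO and 102 ± 9.36 CPM in Control libraries (SD, n = 5 and 7), a ratio of 0.510. The log2 fold change came to -0.97 (SE 0.085, 95% interval -1.15 to -0.79, edgeR adjusted p = 1.56e-05). It ranked at number 13 among the genes called lower by adjusted p, and 43 genes called lower had a log2 fold change as low or lower. With each of the 12 libraries left out in turn, its log2 fold change stayed between -1.05 and -0.94.

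Set against the other members of the same library, Gpc5 amounted to 0.532% to 0.739% of their summed CPM in Chd7iKO libraries and 0.747% to 1.71% in Control libraries. Set against the 19 precursor markers, it amounted to 0.244% to 0.351% of their summed CPM in Chd7iKO and 0.404% to 0.488% in Control libraries. Of those markers 12 were called lower, 0 higher and 7 neither, against 13.8% of all genes lower and 15.8% higher. Their sums were 17250 to 19470 CPM in Chd7iKO and 20990 to 25320 CPM in Control libraries. Among Controls, Gpc5 and the precursor sum were both highest in Control 4 and lowest in Control 6, while among Chd7iKO libraries Gpc5 was lowest in Chd7iKO 2 and 3, where the precursor sum was highest (19330 and 19470 CPM). The part of the precursor markers in the fall of Gpc5 was not tested.

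Slco1c1 encodes a transporter of thyroid hormone and organic anions that in the mouse brain is found on astrocytes and on capillary endothelium (chromosome 6, 141524368 to 141570177). It had 73.0, 113.6, 89.8, 136.3 and 150.4 CPM in Chd7iKO libraries 1 to 5, against 107.1, 56.2, 53.7, 59.0, 76.4, 102.4 and 70.5 CPM in Control libraries 1 to 7. Chd7iKO 2, 4 and 5 lay above every Control, and Chd7iKO 1 and 3 lay within the Control range. The log2 fold change was 0.59 (SE 0.21, 95% interval 0.14 to 1.03, edgeR adjusted p = 0.0481).

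Chd7iKO 1, highest of its group for 22 of 29 members, was the lowest of its group for Slco1c1 and for the summed endothelial markers. The summed CPM of 21 endothelial markers was 710.3, 1000, 770.7, 1249 and 1396 in Chd7iKO libraries 1 to 5, against 910.1, 611.6, 457.5, 544.4, 660.3, 858.3 and 637.7 in Control libraries 1 to 7. Within the Chd7iKO libraries the order of this sum was that of Slco1c1. Slco1c1 came to 10.3% to 11.7% of that sum in Chd7iKO and 9.19% to 11.9% in Control libraries, with the groups overlapping. As a share of the summed CPM of the other 28 astrocyte markers it ranged from 0.691% to 1.66% in Chd7iKO and from 0.599% to 1.15% in Control libraries. Of the endothelial markers 13 were called higher, against 15.8% of all genes, and 0 lower, and their median log2 fold change was 0.75. Without Chd7iKO 5 the count was 1 (9.9% of all genes higher in that fit), and without Chd7iKO 4 it was 4 (12.2%). Without Control 4 it was 8 (12.7%), and without both Chd7iKO 4 and 5 it was 0 (6.44%, median 0.43). The count was 18 without Control 6 (17.6%) or Chd7iKO 1 (16.7%) and 16 without Control 1 (17.5%). With the mean of the endothelial and mural markers as a covariate, the log2 fold change of Slco1c1 was -0.04 (edgeR adjusted p = 0.875). Most of those markers were themselves called higher in Chd7iKO, so this fit cannot separate vascular content from genotype. Without Chd7iKO 4 and 5, where the endothelial sum was highest, the log2 fold change of Slco1c1 was 0.30 (edgeR adjusted p = 0.420). Leaving out 1 library at a time, the call held in 4 of 12 fits, with adjusted p from 0.0187 to 0.150.

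Plcd4, a phospholipase C of the delta class, was the member with the lowest level per length (chromosome 1, 74542888 to 74567794). It had 18.8, 19.1, 14.8, 18.3 and 21.1 CPM in Chd7iKO libraries 1 to 5, against 18.8, 8.53, 16.5, 10.4, 12.6, 12.7 and 9.41 CPM in Control libraries 1 to 7. The groups overlapped through Controls 1 and 3, while the other 5 Controls lay below every Chd7iKO library. The log2 fold change was 0.54 (SE 0.18, 95% interval 0.15 to 0.92, edgeR adjusted p = 0.0362). Of its exon length 29.8% is shared with Zfp142 in the annotation, and the sources do not state whether counting used strand, so reads there are uncertain. The call held in 4 of 12 fits with 1 library left out, with adjusted p from 0.00695 to 0.0960, and it was lost without Chd7iKO 4 and 5 (0.47, adjusted p = 0.186) and with the vascular covariate (0.46, adjusted p = 0.261).

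**Figure D2:**
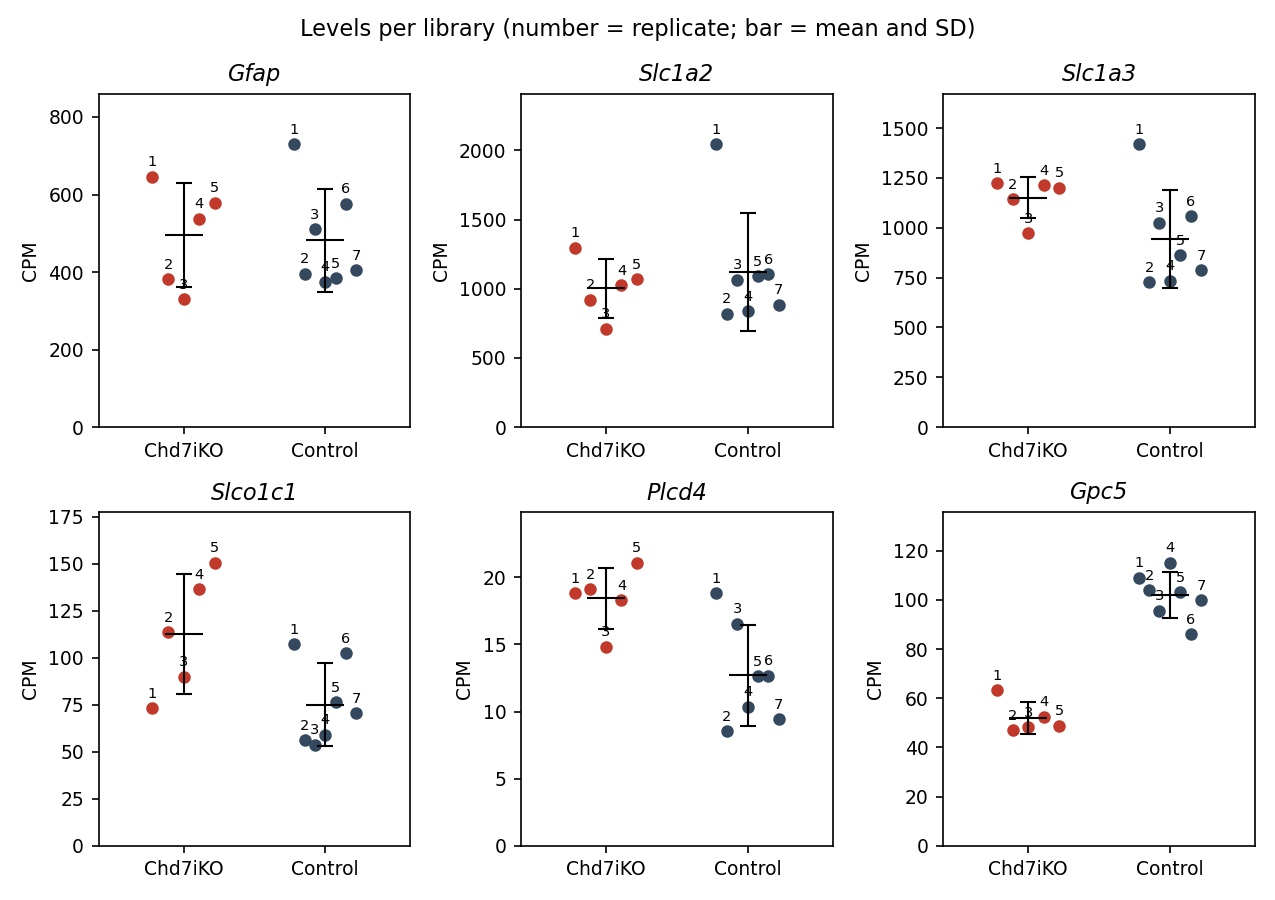
CPM of 6 astrocyte markers in each library, Chd7iKO (red) left of Control (blue), numbered by replicate, with the mean and SD of each group in black. Gpc5 separates the groups, Slco1c1 and Plcd4 overlap, and Control 1 is the highest Control for every gene shown but Gpc5.

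The filament gene Gfap had 646.2, 381.6, 330.2, 537.3 and 578.5 CPM in Chd7iKO libraries 1 to 5, against 729.2, 395.7, 510.7, 374.7, 384.5, 576.7 and 404.1 CPM in Control libraries 1 to 7. Both groups spread about as widely and overlapped almost wholly. The mean was 495 ± 134 CPM in Chd7iKO and 482 ± 133 CPM in Control libraries (SD, n = 5 and 7), and the log2 fold change of 0.04 had an interval of -0.39 to 0.46.

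The 4 members of water and ion balance gave log2 fold changes between -0.02 and 0.05, all with adjusted p of 0.866 or above. Aqp4, the water channel of the end-feet, had 293.7 to 544.3 CPM in Chd7iKO (median 405.6) and 269.7 to 622.8 CPM in Control libraries (median 324.1). Its log2 fold change was 0.05 (95% interval -0.39 to 0.50). Mlc1, a membrane protein of the same end-feet, had 120.8 to 182.1 CPM in Chd7iKO and 117.3 to 276.5 CPM in Control libraries. The bicarbonate cotransporter Slc4a4 ranged from 240.7 to 421.2 CPM in Chd7iKO and from 235.9 to 534.5 CPM in Control libraries. Atp1b2, a beta subunit of the sodium-potassium pump, ranged from 431.9 to 719.3 CPM in Chd7iKO and from 430.6 to 877.0 CPM in Control libraries. None of these 4 differed beyond the spread between replicates.

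None of the 3 genes of glutamate uptake and recycling was called. Slc1a3, the glutamate transporter GLAST, had 1222, 1144, 972.3, 1214 and 1200 CPM in Chd7iKO libraries 1 to 5, against 1418, 725.7, 1024, 734.4, 861.8, 1058 and 786.3 CPM in Control libraries 1 to 7. All 5 Chd7iKO libraries lay above the Control median and none above Control 1. The log2 fold change of 0.29 (SE 0.15) did not pass (edgeR adjusted p = 0.171), and without Control 1 it was 0.42 (adjusted p = 0.0115). That was the 1 of 12 fits with 1 library left out that called Slc1a3, and the others gave adjusted p of 0.139 or above.

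Slc1a2, the other main glutamate transporter (GLT-1), had 1297, 920.7, 710.6, 1024 and 1071 CPM in Chd7iKO libraries 1 to 5, against 2044, 820.5, 1067, 837.0, 1091, 1105 and 885.9 CPM in Control libraries 1 to 7. Its log2 fold change was -0.16 (SE 0.22, adjusted p = 0.628) and 0.06 without Control 1. Within a library, the ratio of Slc1a3 to Slc1a2 CPM was 0.943, 1.24, 1.37, 1.19 and 1.12 in Chd7iKO libraries 1 to 5, against 0.694, 0.884, 0.960, 0.877, 0.790, 0.957 and 0.888 in Control libraries 1 to 7. Chd7iKO 1 lay among the Controls and the other 4 lay above them all. The ratio was chosen after the values were seen and is given with no test. Glul, glutamine synthetase, had 700.1 to 1327 CPM in Chd7iKO and 715.8 to 1997 CPM in Control libraries (log2 fold change -0.13, adjusted p = 0.736), and 2 of its deposited values were not whole numbers.

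Neither gap junction connexin was called. Gjb6 had 13.0 to 40.3 CPM in Chd7iKO (median 28.1) and 13.5 to 55.6 CPM in Control libraries (median 20.7), a span of 4.12 times among Controls, of which Control 1 was the highest. The other 6 Controls had 13.5 to 30.1 CPM. Its log2 fold change of 0.17 carried an interval of -0.57 to 0.90. Gja1, the most abundant astrocyte connexin, had 187.1 to 326.5 CPM in Chd7iKO and 156.5 to 444.7 CPM in Control libraries (log2 fold change 0.14, adjusted p = 0.684).

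Among the metabolic enzymes, Plcd4 was called and the other 5 were not. Acsbg1, an acyl-CoA synthetase of long fatty acids, had 179.5, 159.2, 145.0, 183.4 and 195.4 CPM in Chd7iKO libraries 1 to 5, against 224.5, 93.6, 120.9, 76.0, 109.1, 158.1 and 107.7 CPM in Control libraries 1 to 7. Control 1 was the highest of all 12 libraries, and Control 6 alone of the other Controls reached into the Chd7iKO range. Its log2 fold change of 0.44 (SE 0.21) did not pass (edgeR adjusted p = 0.136), and it was 0.64 (adjusted p = 0.00716) without Control 1. The other fits with 1 library left out, of 12, did not call Acsbg1 (adjusted p of 0.0977 or above). Aldh1l1, a folate enzyme widely used to mark astrocytes, had 87.9 to 125.4 CPM in Chd7iKO and 76.2 to 185.2 CPM in Control libraries (log2 fold change -0.03). Aldoc, a glycolytic aldolase, Dio2, which activates thyroid hormone, and the peroxiredoxin Prdx6 gave log2 fold changes of -0.16, -0.17 and -0.02. Aldoc ranged from 306.6 to 503.3 CPM in Chd7iKO and from 299.0 to 791.0 CPM in Control libraries. Dio2 ranged from 48.3 to 106.1 CPM in Chd7iKO and from 56.2 to 154.9 CPM in Control libraries. Prdx6 ranged from 137.4 to 159.9 CPM in Chd7iKO and from 130.7 to 196.4 CPM in Control libraries, inside which all 5 Chd7iKO values lay. Prdx6 was the enzyme with the narrowest interval, from -0.21 to 0.18, and Dio2 the one with the widest, from -0.71 to 0.38.

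None of the 5 receptors was called. The log2 fold change was -0.04 for the growth factor receptor Fgfr3, 0.0016 for the neurotensin receptor Ntsr2, 0.07 for the BMP receptor Bmpr1b, -0.17 for F3, the cell surface receptor that starts blood clotting, and -0.16 for the sphingosine-1-phosphate receptor S1pr1, which endothelial cells also express. Fgfr3 ranged from 123.7 to 230.8 CPM in Chd7iKO and from 108.5 to 333.1 CPM in Control libraries, and Ntsr2 from 29.7 to 56.2 CPM in Chd7iKO and from 24.7 to 67.4 CPM in Control libraries. Bmpr1b ranged from 19.1 to 29.3 CPM in Chd7iKO and from 16.8 to 37.1 CPM in Control libraries. F3 had 52.0 to 57.2 CPM in Chd7iKO libraries 2 to 5 and 78.0 CPM in Chd7iKO 1, against 48.5 to 88.1 CPM in Control libraries. For these 4 receptors the Control range held every Chd7iKO value. S1pr1 had 105.6, 116.2, 97.0, 129.3 and 130.7 CPM in Chd7iKO libraries 1 to 5 and 104.7 to 165.6 CPM in Control libraries. With the vascular covariate its log2 fold change was -0.39 (adjusted p = 0.0487), against 4.22% of all genes called lower in that fit. This was the 1 of 24 alternative fits that called S1pr1, and it cannot separate vascular content from genotype.

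The other carriers were the zinc transporter Slc39a12, with 15.6 to 33.5 CPM in Chd7iKO and 21.1 to 58.7 CPM in Control libraries (log2 fold change -0.29, adjusted p = 0.413), and the neutral amino acid carrier Slc7a10, with 40.3 to 48.3 CPM in Chd7iKO and 35.5 to 70.5 CPM in Control libraries (0.0041, adjusted p = 0.987). The other 4 secreted proteins stood beside Gpc5. The chaperone clusterin (Clu) and the synaptogenic matrix protein Sparcl1 gave log2 fold changes of -0.13 each. Clu ranged from 219.6 to 317.1 CPM in Chd7iKO and from 236.8 to 448.5 CPM in Control libraries, and Sparcl1 from 842.9 to 1556 CPM in Chd7iKO and from 994.7 to 2292 CPM in Control libraries. Chd7iKO 3 lay below every Control for both. The BMP antagonist Chrdl1 had 37.6 to 51.3 CPM in Chd7iKO and 31.0 to 51.1 CPM in Control libraries (log2 fold change 0.18, adjusted p = 0.302) and was the 1 member with its highest value in Chd7iKO 1. Mfge8, which tags cells for engulfment, had 206.2 to 242.6 CPM in Chd7iKO and 154.3 to 301.2 CPM in Control libraries (0.18, adjusted p = 0.360), and its log2 fold change was 0.31 (adjusted p = 0.0143) without Control 1. Of 12 fits with 1 library left out, only that 1 called Mfge8, and the others gave adjusted p of 0.290 or above.

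**Figure D3:**
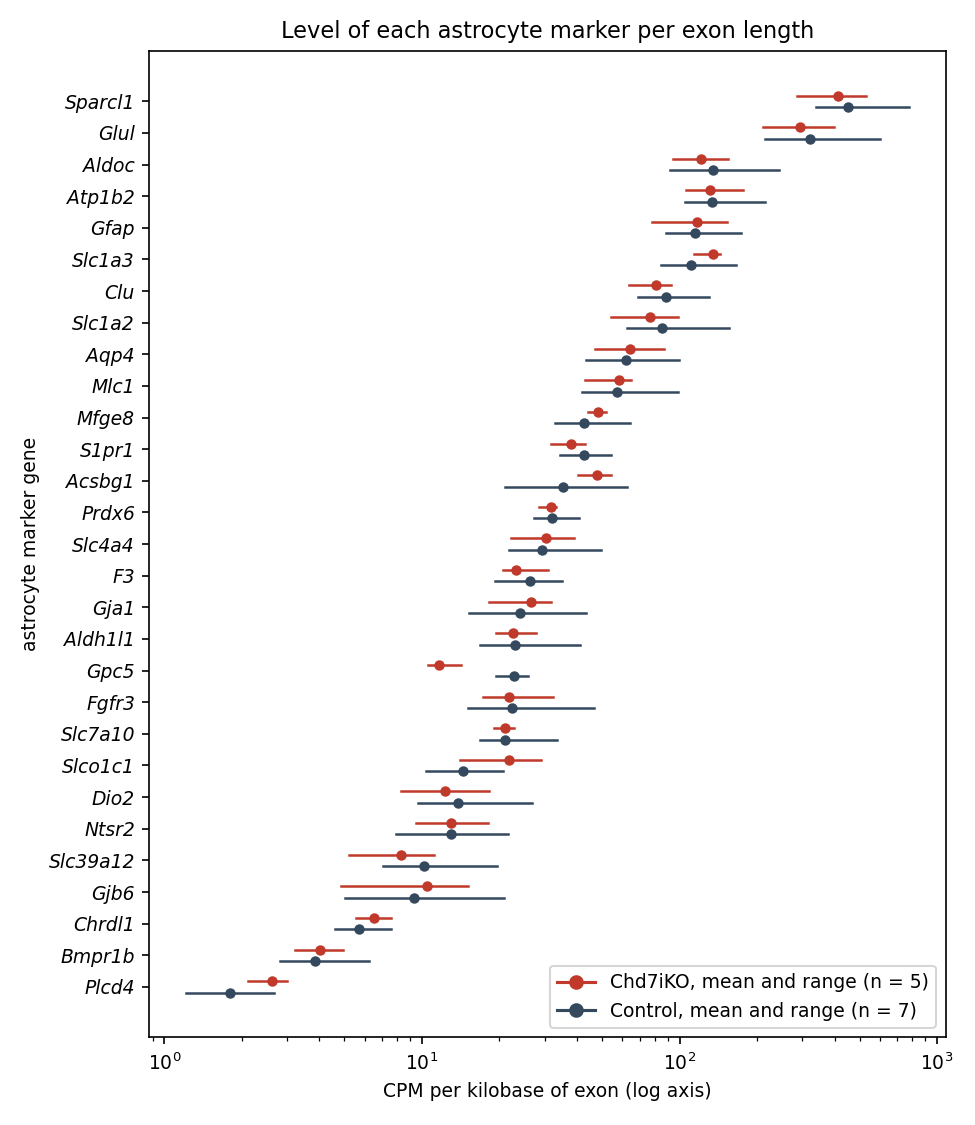
Level of each member as CPM per kilobase of exon (log axis), mean and range over 5 Chd7iKO (red, upper) and 7 Control libraries (blue, lower). Sparcl1 and Glul are highest, Plcd4 is lowest, and Gpc5 is the member whose ranges do not touch.

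Per kilobase of exon, members spanned from 2.62 CPM in Chd7iKO and 1.80 CPM in Control libraries for Plcd4 up to 413.5 CPM in Chd7iKO and 452.5 CPM in Control libraries for Sparcl1 (group means). After Sparcl1 came Glul with a Control mean of 321.3 CPM per kilobase, then Aldoc with 135.0, Atp1b2 with 133.1, Gfap with 114.3 and Slc1a3 with 110.6. From Aldoc down to Slc1a3 the Control ranges overlapped, so that their order is not resolved by the spread between libraries.

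**Figure D4:**
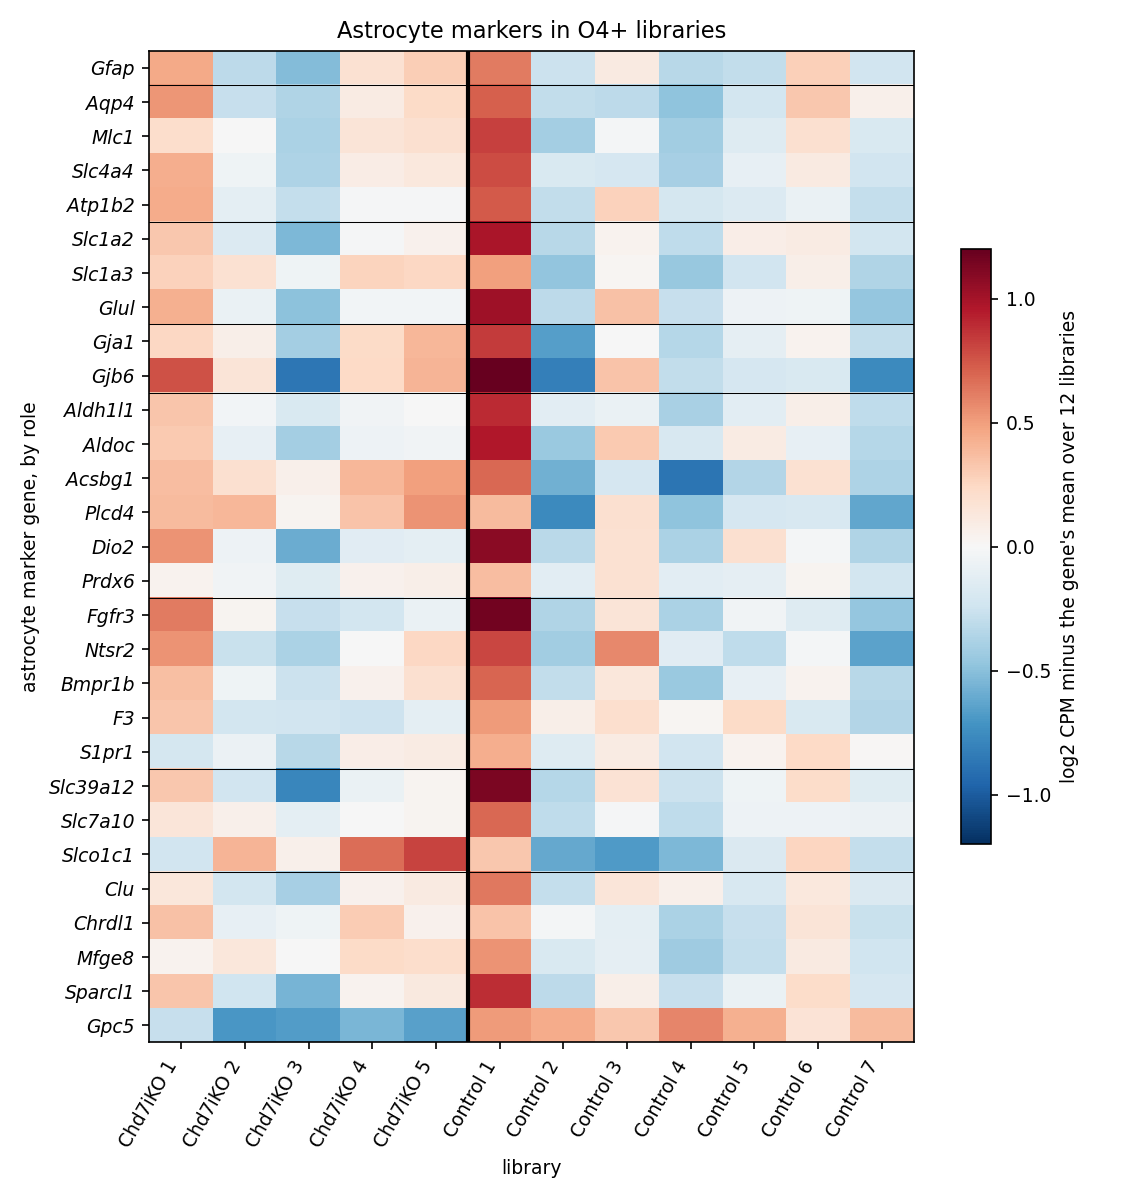
Log2 CPM of each member minus its mean over the 12 libraries, with Chd7iKO libraries left of the black line and Control libraries right of it, and members grouped by role. Control 1 is red in every row, Chd7iKO 3 is blue in most rows, and the bottom row, Gpc5, changes at the line.

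Members varied together between libraries of 1 group. The summed CPM of the 29 members was 10640, 7963, 6564, 8902 and 9206 in Chd7iKO libraries 1 to 5, against 14700, 6733, 9021, 6841, 7910, 9019 and 7042 in Control libraries 1 to 7. Control 1 was the highest Control for 28 of 29 members, all but Gpc5, and the highest of all 12 libraries for 25, while over all genes it was the highest Control for 21.5%. Chd7iKO 1 was the highest Chd7iKO library for 22 members, against 32.6% of all genes, and Chd7iKO 3 the lowest for 25, against 18.3% of all genes. For 16 members every Chd7iKO library lay within the Control range, which held for 22.6% of all genes. Control 1 set the top of that range for 28 of 29 members, so this count does not show that they were unchanged.

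The median SD of log2 CPM was 0.254 for members and 0.130 for all genes among Chd7iKO libraries, and 0.416 for members and 0.161 for all genes among Control libraries. Among Controls 28 of 29 members exceeded the median of all genes, and 9.10% of all genes reached the median of the members. Gpc5 was the exception at 0.135. Without Control 1, 5 members were called higher (17.5% of all genes in that fit) and 1 lower (14% of all genes), the additional ones being Slc1a3, Acsbg1 and Mfge8, and the median log2 fold change of the members was 0.18.

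With the mean log2 CPM of the members as a covariate, chosen after the data were seen, 4 members were called higher (17.8% of all genes in that fit) and 4 lower (15% of all genes). Slc1a3 stood at 0.29, Acsbg1 at 0.46, Plcd4 at 0.54 and Slco1c1 at 0.59, and Slc1a2 at -0.17, Slc39a12 at -0.30, Sparcl1 at -0.15 and Gpc5 at -0.98. The covariate is built from the members themselves, so that these values say how each stood relative to the rest of the list and are no independent support.

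**Figure D5:**
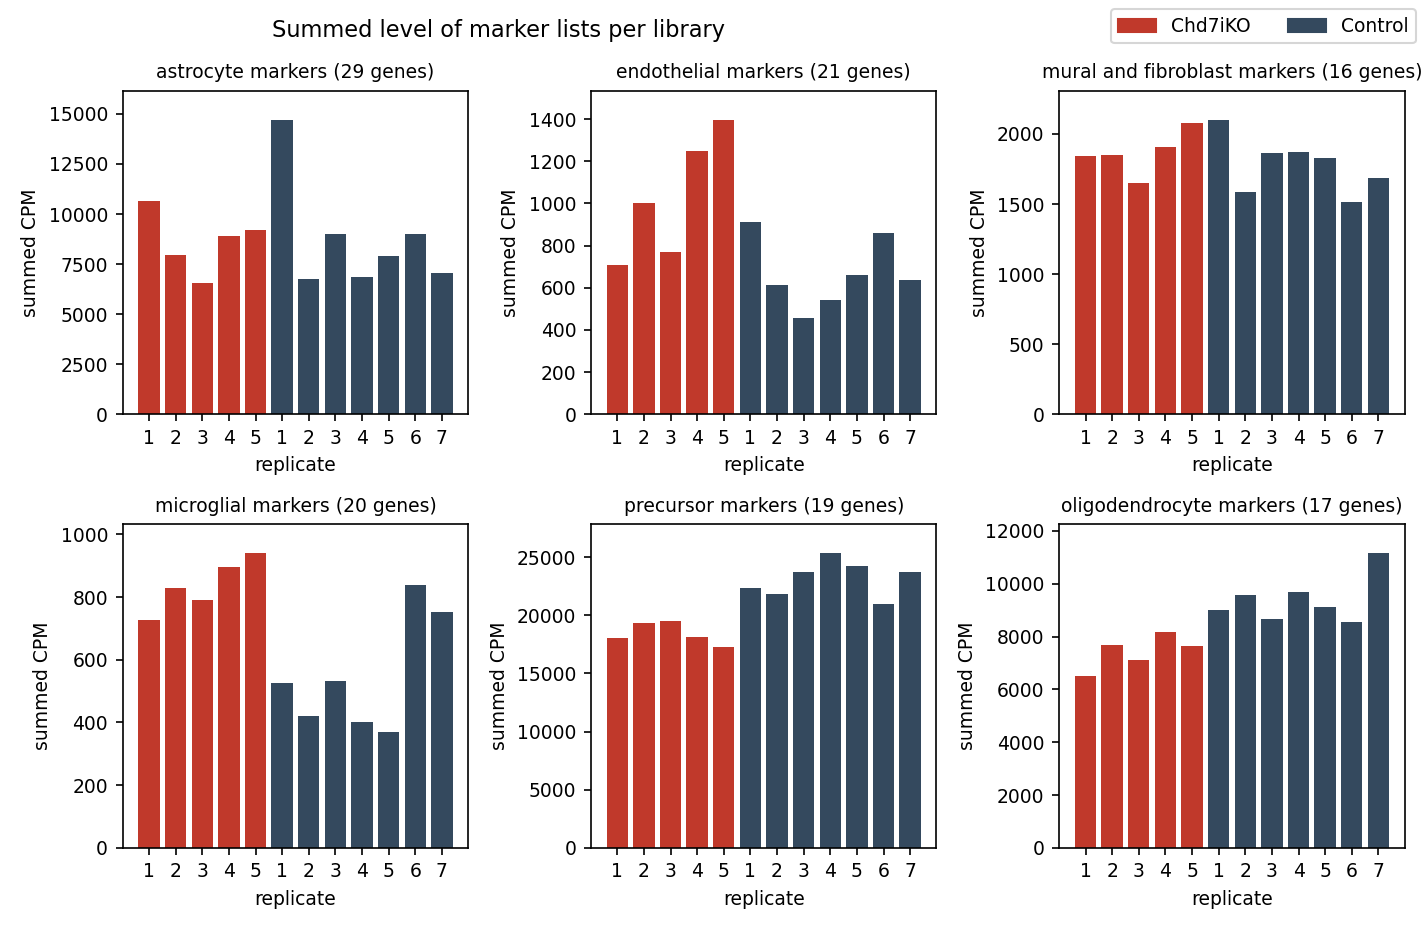
Summed CPM of 6 marker lists in each library, Chd7iKO (red) left of Control (blue), bars from 0. Astrocyte markers peak in Control 1, endothelial and microglial markers are highest in Chd7iKO 5, and precursor and oligodendrocyte markers are lower in every Chd7iKO library than in any Control.

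Of 16 mural and fibroblast markers 11 were called higher and 0 lower. Their summed level overlapped, at 1647 to 2075 CPM in Chd7iKO and 1514 to 2100 CPM in Control libraries, and they include Cspg4, also a precursor marker. Of 20 microglial markers 14 were called higher and 0 lower, with summed levels of 727.7 to 939.3 CPM in Chd7iKO and 369.8 to 839.8 CPM in Control libraries. Over all genes 15.8% were called higher. Leaving out 1 library at a time, the counts higher ran from 4 to 12 for the mural list and from 5 to 19 for the microglial list. Both were lowest without Chd7iKO 5, where 9.9% of all genes were called higher. Without Chd7iKO 4 and 5 together they were 1 and 2, against 6.44% of all genes. Mural counts of 6 or 7 also came from leaving out Chd7iKO 2, Chd7iKO 4 or Control 2, 4 or 5, and microglial counts of 6 to 9 from Chd7iKO 2, 3 or 4 or Control 2, 3, 4 or 5. In those fits 11.9% to 14.3% of all genes were called higher. Of 17 oligodendrocyte markers 0 were called higher and 10 lower, against 13.8% of all genes called lower. Without Chd7iKO 4 and 5 the count lower was 9, against 5.95% of all genes. None of the genes measured in these lists stood at 0 in any library. The vascular covariate is built from markers that were themselves called higher, so it cannot separate these cell types from genotype. With it, 0 endothelial and 0 mural markers were called. The part of these cell types in the astrocyte marker results was not tested.

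A further list of 54 astrocyte genes, chosen like the members with earlier results known, held 6 called higher and 5 lower, against 15.8% and 13.8% of all genes, and its median log2 fold change was 0.04. The higher ones included the filament genes of immature glia Nes (195 ± 18.7 CPM in Chd7iKO and 89.4 ± 18.2 CPM in Control libraries, log2 fold change 1.12) and Vim (544 ± 80.6 CPM in Chd7iKO and 210 ± 57.1 CPM in Control libraries, 1.38), for both of which all 5 Chd7iKO libraries lay above all 7 Controls. Vim and Nes are also expressed by endothelial cells and by neural progenitors. The lower ones included the endothelin receptor Ednrb (580 ± 24.2 CPM in Chd7iKO and 963 ± 127 CPM in Control libraries, -0.73) and the prosaposin receptor Gpr37l1 (425 ± 26.1 CPM in Chd7iKO and 565 ± 46.7 CPM in Control libraries, -0.41), again with no overlap. In the same libraries 12 of 19 precursor markers were called lower and 0 higher, and the part of precursors in these falls was not tested. Without Chd7iKO 4 and 5 the list held 3 higher and 3 lower, against 6.44% and 5.95% of all genes, and with the vascular covariate 3 higher and 4 lower, against 4.76% and 4.22%. Without Control 1 it held 11 higher and 5 lower, against 17.5% and 14% of all genes. Without Control 2 it held 6 higher and 8 lower, against 13.6% and 12.3%.

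Of 29 measured genes known from reactive astrocytes, 14 were called higher and 1 lower, against 15.8% and 13.8% of all genes, and the median log2 fold change was 0.61. By smallest adjusted p the higher ones were led by the interferon-induced GTPase Iigp1 (3.06 ± 0.908 CPM in Chd7iKO and 0.831 ± 0.222 CPM in Control libraries), the protease inhibitor Timp1 (2.62 ± 0.352 CPM in Chd7iKO and 1.22 ± 0.250 CPM in Control libraries) and the chemokine Cxcl10 (2.61 ± 0.584 CPM in Chd7iKO and 0.731 ± 0.327 CPM in Control libraries). The lower one, the copper-binding ferroxidase Cp, had 25.5 ± 1.82 CPM in Chd7iKO and 47.3 ± 4.39 CPM in Control libraries (-0.89). Several of these genes are also expressed by endothelial cells and microglia, of whose markers 13 of 21 and 14 of 20 were called higher. The part of those cells in the reactive gene results was not tested. Without Chd7iKO 4 and 5 the list held 7 higher and 1 lower, against 6.44% and 5.95% of all genes. With the vascular covariate it held 6 higher and 1 lower, against 4.76% and 4.22%. Lcn2, named here after its values were seen, had 0.260 to 1.63 CPM in Chd7iKO libraries, against 21.1 CPM in Control 1 and 0.496 to 4.12 CPM in the other 6 Controls, and was not called. Gfap, whose rise is the usual sign of reactive astrocytes, was not called (log2 fold change 0.04, 95% interval -0.39 to 0.46). A rise within that interval was not excluded. The filament genes Vim and Nes of the further list were called higher (1.38 and 1.12). Whether astrocytes were reactive was not tested.

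The deposited lists of genes bound by Chd7 and Chd8 give a readout separate from the RNA, though the sources do not state how sites were assigned to genes. There were 9 members on the list of genes bound by Chd7 in oligodendrocyte precursors, 31.0% of the members against 39.4% of all tested genes. They were Gfap, Slc4a4, Slc1a3, Glul, Aldh1l1, Prdx6, S1pr1, Mfge8 and Gpc5. Of these, Gfap, Slc4a4 and Gpc5 were also on the list shared with oligodendrocytes, and all but Aldh1l1 were on the list shared with Chd8. Another 11 members (37.9%, against 32.0% of tested genes) were on the list bound by Chd8 without Chd7, and 9 (31.0%, against 28.6%) were on neither, Slco1c1 and Plcd4 among them. Gpc5 was the 1 Chd7-bound member that was called, against 29.5% of all genes, and the other 8 had log2 fold changes from -0.16 to 0.29. The part of Chd7 binding in the fall of Gpc5 was not tested.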

How the data were processed

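RNA was measured in 12 libraries, whose groups follow their titles and genotypes. Per the submitters' processing notes, TopHat2, Bowtie, featureCounts, edgeR and mm10 were used, with no role or version named; the sources do not state the annotation. What the authors deposited are estimated counts for each gene, 1.76% of which (2973) were not whole numbers, and their own log2 fold changes with p-values, quoted only where named. The authors' lists of bound genes hold no values.

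Counts were rounded. CPM were computed after TMM scaling. The test was edgeR's (4.0.16, R 4.3.3) quasi-likelihood F-test without covariates, two-sided, adjusted over all 14107 genes; the expression filter removed 0. Chd7 was tested by exact permutation. The lowest mean of a gene was 20.8 counts, so weakly expressed genes are not in the table. None of the 31 pairs of libraries within a group agreed within sampling noise. Exon lengths came from GENCODE M21 (GRCm38). DESeq2 (1.42.0) and limma (3.58.1) were alternatives, with other scalings, filters and thresholds, a replicate block, a covariate of vascular markers, and libraries left out. The code was tested on simulated data. All members are named, and of other lists up to 4 called genes by smallest adjusted p or those a small count covers. The members and lists were chosen with earlier results of these data known. The covariate of the members' own mean, the CG count and the ratios within libraries were chosen after the data were seen.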

Additional observations from a re-analysis of the deposited data

Results flagged for a closer look

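In 18 of 62 groups of values, 1 library lay far from the others of its group by Dixon's test, where chance flags about 1 in 20 groups (3.1 of 62). Chd7iKO 1 stood apart for Fgfr3 at 230.8 CPM and for F3 at 77.96 CPM. The other 16 were all Control 1, with a summed level of 14700 CPM, and with CPM of 276.5 for Mlc1, 534.5 for Slc4a4, 2044 for Slc1a2, 1997 for Glul, 444.7 for Gja1, 55.62 for Gjb6, 185.2 for Aldh1l1, 791 for Aldoc, 154.9 for Dio2, 333.1 for Fgfr3, 37.15 for Bmpr1b, 58.68 for Slc39a12, 70.54 for Slc7a10, 448.5 for Clu and 2292 for Sparcl1. The members share that library, so that these are not 16 separate observations. Gfap, Aqp4 and Slc1a3 were highest in Control 1 as well, without standing apart by this test.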

How the results depend on the processing

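Gpc5 kept its direction and its call under all 24 alternatives that refit it, with log2 fold changes from -1.07 to -0.88. Slco1c1 and Plcd4 passed in 13 of 24 each. The 24 include the fit with no filter, which equals the main fit because the filter removed 0 genes. They also include the covariate of the members' own mean, which is no independent support. Leaving out 1 library at a time gave 0 to 5 members called higher, 1 lower in each fit and 2690 to 4612 genes in all, the lowest without Chd7iKO 5; 0 were higher without Control 2, 4, 5 or 7 or Chd7iKO 2, 4 or 5, 1 without Control 3 or Chd7iKO 1, and 5 without Control 1. Leaving out both Chd7iKO 4 and 5 gave 1747 genes and 0 members higher, the vascular covariate 1268 genes, 0 members higher and 2 lower (Gpc5 and S1pr1), and the threshold of 0.01 gave 2056 genes and 0 members higher. limma voom gave 6462 genes (45.8%) and 5 members higher (24% of all genes). The covariate of the members' own mean gave 4 higher and 4 lower. The replicate block gave 4780 genes (33.9%), 0 members higher and 2 lower, Gpc5 and F3 (-0.30), with Plcd4 at 0.51 (edgeR adjusted p = 0.0788) and Slco1c1 at 0.69 (adjusted p = 0.0544). Of the 54 further astrocyte genes the block called 6 higher and 13 lower and limma voom 12 higher and 10 lower. Of the 29 reactive ones the block called 14 higher and 5 lower and limma voom 19 higher and 2 lower. Over all genes the block called 17.8% higher and 16.1% lower, and limma voom 24% higher and 21.8% lower. The numbers were not taken to pair the samples, since same-numbered libraries correlated at 0.376, -0.120, 0.0839, -0.127 and -0.177. The causes were not tested.

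Apart from Slco1c1 with the vascular covariate, the members that changed sign were called in neither fit. Log2 fold changes of the opposite sign were 0.013 for Atp1b2, 0.0074 for Aldh1l1 and 0.015 for Prdx6 with library totals, 0.026 for Atp1b2, 0.092 for Aldh1l1, 0.048 for Prdx6 and 0.090 for Fgfr3 with limma voom, -0.075 for Ntsr2 with the block, -0.12 for Gfap, -0.17 for Aqp4, -0.23 for Mlc1, -0.13 for Slc4a4, -0.14 for Gja1, -0.037 for Bmpr1b, -0.12 for Slc7a10, -0.039 for Slco1c1 and -0.051 for Mfge8 with the vascular covariate, -0.091 for Gfap, -0.0065 for Aqp4, -0.070 for Mlc1, 0.0055 for Atp1b2, -0.0010 for Gja1, 0.0046 for Aldh1l1, 0.082 for Fgfr3 and -0.039 for Ntsr2 without Chd7iKO 4 and 5, 0.013 for Atp1b2, 0.028 for Prdx6 and -0.013 for Slc7a10 without Controls 3 and 6, and -0.0061 for Gfap and -0.019 for Ntsr2 with the members' mean. With 1 library left out, the ranges that crossed 0 were -0.079 to 0.17 for Gfap, -0.084 to 0.22 for Aqp4, -0.046 to 0.21 for Mlc1, -0.057 to 0.23 for Slc4a4, -0.15 to 0.14 for Atp1b2, -0.27 to 0.059 for Slc1a2, -0.26 to 0.11 for Glul, -0.0056 to 0.50 for Gjb6, -0.12 to 0.18 for Aldh1l1, -0.26 to 0.051 for Aldoc, -0.35 to 0.078 for Dio2, -0.047 to 0.057 for Prdx6, -0.23 to 0.25 for Fgfr3, -0.15 to 0.18 for Ntsr2, -0.013 to 0.23 for Bmpr1b, -0.043 to 0.16 for Slc7a10 and -0.24 to 0.060 for Sparcl1. The log2 difference of Chd7 was -0.024 to 0.096 with 1 library left out and -0.059 without Controls 3 and 6. The widest member interval, that of Gjb6, ran from -0.57 to 0.90, so that changes within it were not excluded here.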
